A study of Mus musculus with 58 samples.

Results

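The retina of diabetic mice was compared between dusk and dawn, using 4 libraries collected 1 h after lights off (ZT13) and 5 collected 1 h after lights on (ZT1), out of 58 libraries in all. ZT is the time in hours after lights on, with lights on at ZT0 and off at ZT12. The groups were chosen by their labels alone. All 9 mice were 4-month-old males heterozygous for Ins2Akita on a C57BL/6 background, kept under 12 h of light and 12 h of darkness with food always available, and their blood glucose was above 250 mg/dL. Ins2Akita is a point mutation of the insulin 2 gene that misfolds insulin and destroys pancreatic beta cells, so that it models type 1 diabetes from a young age and not the late vascular disease. As a point mutation it cannot be checked from gene counts of the retina. Wild-type male littermates of the same age, 5 libraries at ZT13 and 5 at ZT1, served as the background of the same comparison without diabetes. Each library was made from retinal RNA depleted of ribosomal RNA. All mice were perfused with cold saline before dissection. The retinas of the dark phase were taken under dim red light, so the hour, the room light and the light during dissection cannot be told apart in this comparison.

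The retina has its own circadian clock, a loop in which the activators Clock and Bmal1 (Arntl) switch on their repressors Per and Cry, and the nuclear receptors Rev-erb (Nr1d1, Nr1d2) and Ror act on Arntl in turn. Light and the clock act on photoreceptors through opposed signals. Dopamine, released by amacrine cells in light, acts on D4 receptors (Drd4) of photoreceptors and lowers cyclic AMP, which is made by adenylyl cyclases such as Adcy1. In darkness rods hold their channels open and use much energy, largely from aerobic glycolysis. Light onset and neuronal activity induce immediate early genes, transcription factors of the Fos, Egr and Nr4a families that need no new protein to be switched on. The pigment epithelium, the layer behind the photoreceptors that recycles their chromophore, is outside the neural retina and stays in part on it when the tissue is dissected.

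The 9 libraries held 10223817 to 19441932 counted reads each. Values below are normalized counts, counts divided by a size factor for each library, and the fold changes are on the log2 scale with a standard error (SE). Markers of rods, cones, bipolar, amacrine, ganglion, horizontal and Müller cells were present in all 9 libraries, as a retina should have. The library of ZT13 replicate 5 stood apart from the others. Its 10 most counted genes took 21.5% of its counts, against 10.3% to 12.2% in the other 8 libraries, and Gm23935, annotated as a microRNA gene, took 5.59% of them. Gm23935 (chr16:11144125-11144181, plus strand) had 886800 normalized counts in ZT13 replicate 5 and 108500 in replicate 4, against 3348 to 10610 in the other 7 libraries. The mitochondrial ribosomal RNA gene mt-Rnr1 likewise had 12740 normalized counts in ZT13 replicate 5 and 6975 in replicate 4, and 350 to 1201 in the other 7. The groups overlapped for both genes, which came out higher at ZT13 by 5.23 ± 1.10 and 3.01 ± 0.69 on the log2 scale, with adjusted p of 0.00468 and 0.0112 by edgeR. Without replicate 5 the values were 2.55 and 2.08, and neither passed. No difference in total counts was found between the 2 groups by an exact permutation test, two-sided (p = 0.849, smallest possible p 0.00794).

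Markers of the pigment epithelium also moved with the time of day. The summed normalized counts of 8 markers were 2655, 2218, 3119 and 4801 at ZT13 and 869, 1335, 979, 977 and 689 at ZT1. Every ZT13 library was thus above every ZT1 library (exact permutation test, two-sided p = 0.00794). Of the 8 markers, 5 rose at ZT13, Best1 and Tyrp1 did not pass, Mlana was too low to be tested, and none was at 0. In bulk tissue, more pigment epithelium on the dissected retina and more of these RNAs per cell cannot be told apart. Of the 3 markers of melanocytes and choroid, Tyr, the enzyme that starts melanin synthesis, rose (1.86 ± 0.44, adjusted p = 0.0144, edgeR). Without ZT13 replicate 5 Tyr was 1.53 and with the marker sum as a term 0.19, and it passed in neither. The sum of the 3 ranged from 154 to 905 at ZT13 and from 105 to 397 at ZT1. Lens markers ranged from 18.5 to 909 in sum at ZT13 and from 26.3 to 1035 at ZT1, and blood markers from 9.85 to 142 and from 0 to 190.

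Between dusk and dawn, 171 genes were higher and 97 lower at ZT13 in diabetic retinas, of 19120 genes tested (edgeR's quasi-likelihood test, Benjamini-Hochberg adjusted p under 0.05). This is 0.894% of the genes in the upward and 0.507% in the downward direction, 1.4% together. These shares are the background for the genes past the threshold in every list below. An unadjusted p under 0.05 was found by edgeR for 2154 of the 19120 genes, both directions together. That is the background for the list counts at an unadjusted p under 0.05 in the same fit. The median log2 fold change was 0.74 among the genes that were higher and -0.44 among those that were lower, while over all genes it was -0.00037. At least 2-fold changes were found in 56 of the genes that were higher and in 12 of those that were lower. In 146 of the 171 genes all ZT13 libraries lay above all ZT1 libraries, an order seen in 2.31% of all genes, and in 83 of the 97 they all lay below, as in 2.04% of all genes. Protein-coding genes made up 80.7% of the genes that were higher, 88.7% of those that were lower and 74.3% of all genes tested. Leaving out ZT13 replicate 5 reduced the counts to 80 and 56, and leaving out ZT1 replicate 5 to 98 and 38. With 1 library left out in turn, 60 of the 171 and 26 of the 97 genes passed in all 9 fits, and all 268 kept their sign. With the summed pigment epithelium markers as a term in the model, 18 and 6 genes passed, and 165 of the 171 and all 97 kept their sign. The 171 hold 5 of the markers summed, and 161 of the other 166 kept their sign. The median log2 fold change with the term was 0.43 and -0.37, 122 and 88 genes had an unadjusted p under 0.05, and the median SE rose from 0.164 to 0.189 and from 0.108 to 0.134.

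**Figure D1:**
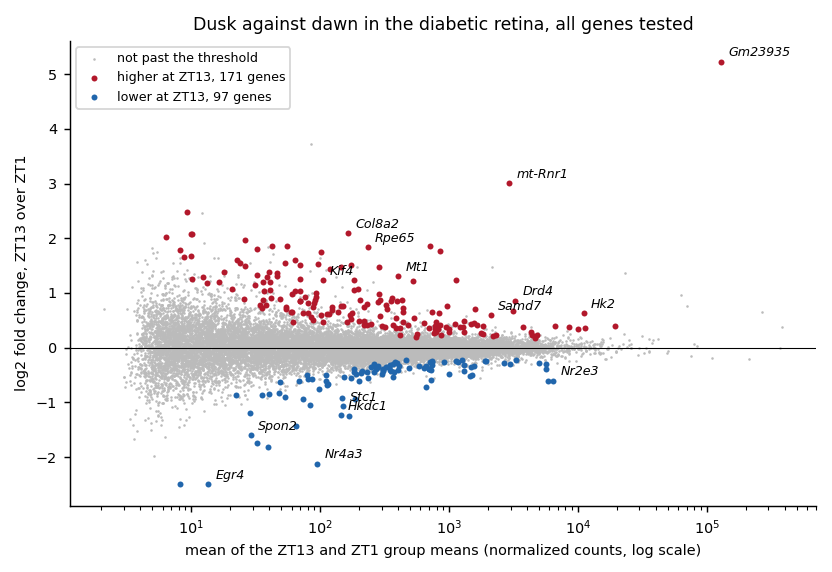
Log2 fold change of ZT13 over ZT1 in diabetic retinas against the mean level in normalized counts on a log axis, with 1 point per gene. The 171 genes in red and the 97 in blue passed an adjusted p of 0.05. Gm23935 and mt-Rnr1, far above the others at the upper right, were high in ZT13 replicates 4 and 5 only.

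Of 28 immediate early genes tested, 7 were lower at dusk and 0 higher, 5 had a positive log2 fold change, and the median was -0.37. The orphan receptor Nr4a3 (chr4:48045153-48086447) had 13.9, 33.3, 54.4 and 38.4 normalized counts at ZT13 and 154, 115, 130, 191 and 184 at ZT1. It fell by 2.12 ± 0.37 on the log2 scale (adjusted p = 0.000398, edgeR), a 4.35-fold difference between groups that did not overlap. Npas4, an activity-induced transcription factor of neurons, had 30.1, 23.4, 41.2 and 44.5 normalized counts at ZT13 and 83.2, 92.8, 86.3, 96.0 and 113.5 at ZT1 and fell by 1.43 ± 0.26 (adjusted p = 0.000542, edgeR). For the zinc finger factors Egr3 and Egr4 the differences were -1.83 ± 0.34 and -2.50 ± 0.46. Egr4 was the lower of the pair, with 2.40 to 6.16 normalized counts at ZT13 and 11.1 to 34.1 at ZT1. The ZT13 libraries also lay below all ZT1 libraries for Btg2, an antiproliferative gene, with 1122 to 1236 against 1429 to 2076 normalized counts (-0.52 ± 0.09). The other members that passed were Fosl2 (-0.93) and Atf3 (-0.76). Several well-known members did not pass. Fos had a log2 fold change of -0.33 (unadjusted p = 0.401, edgeR), Egr1 -0.56 (unadjusted p = 0.38), Junb -0.37 (unadjusted p = 0.0831) and Nr4a1 0.08 (unadjusted p = 0.773). In the list as a whole 12 genes were lower and 1 was higher at an unadjusted p under 0.05. Without ZT13 replicate 5, 8 members passed, and with the pigment epithelium term 1 did, while 12 were still lower at an unadjusted p under 0.05 in both fits.

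The host gene of the microRNAs miR-212 and miR-132, 1700016P03Rik (chr11:75172560-75177633), was lower at dusk as well. It had 15.1 ± 4.72 normalized counts (SD, n = 4) at ZT13 and 50.1 ± 14.9 (SD, n = 5) at ZT1 and fell by 1.75 ± 0.34 (adjusted p = 0.00137, edgeR). Within it, the hairpin gene Mir212 had 3.48, 2.46, 2.47 and 1.20 normalized counts at ZT13 and 12.8, 9.69, 16.1, 19.1 and 12.0 at ZT1 (-2.50 ± 0.48, adjusted p = 0.00122). After thinning to the smallest library it was -1.95, with the pigment epithelium term -2.10, and it passed in neither, and DESeq2 gave it no adjusted p. These low counts are reads of long RNA over the hairpin and not of mature microRNA, and Mir212 was singled out after its values were seen. The mature sequences (RefSeq, GRCm38.p6) are shown because both 3p arms share bases 2 to 8, the seed that pairs with targets, which is in capitals.
mmu-miR-212-3p, chr11:75173443-75173464, plus strand: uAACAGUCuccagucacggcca
mmu-miR-132-3p, chr11:75173723-75173744, plus strand: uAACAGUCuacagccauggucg
The neurotrophin Bdnf, another gene induced by activity, had 88.0 to 124 normalized counts at ZT13 and 174 to 213 at ZT1 and fell by 0.92 ± 0.19 (adjusted p = 0.00396, edgeR). It was also chosen after its values were seen.

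Photoreceptor and bipolar transcription factors changed in both directions. Of 16 photoreceptor factors tested, 3 rose and 1 fell, with a median log2 fold change of 0.07. Samd7 (chr3:30746293-30767174), a photoreceptor repressor that acts with Polycomb proteins, had the smallest p of the genes that rose. It had 2426, 2647, 2663 and 2477 normalized counts at ZT13 and 1584, 1525, 1656, 1756 and 1932 at ZT1. The groups were clearly apart, with a log2 fold change of 0.59 ± 0.09 (adjusted p = 8.9e-05, edgeR), or 1.51-fold. Thrb, the thyroid hormone receptor that specifies cones sensitive to longer wavelengths, rose by 0.27 ± 0.05 (adjusted p = 0.00368), though ZT13 replicate 5 (1687) lay just below the highest ZT1 library (1691). Rorb, which acts in photoreceptor development and in the clock loop, rose by 0.37 ± 0.10 (adjusted p = 0.0468) and passed in only 1 of the 9 fits with a library left out. The nuclear receptor Nr2e3 (chr9:59942771-59960659), which represses cone genes in rods, fell instead. It had 5491, 5415, 5345 and 4310 normalized counts at ZT13 and 7674, 6983, 7116, 8085 and 9022 at ZT1, a log2 fold change of -0.60 ± 0.10 (adjusted p = 0.000179, edgeR). Its reads could be shared with Gm15507, which overlaps it on the same strand.

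Among effector genes of photoreceptors, a few passed the test. BC027072, the mouse gene for the photoreceptor protein Pcare, had 4769, 4548, 4956 and 4309 normalized counts at ZT13 and 7562, 7390, 6266, 6715 and 7618 at ZT1, and fell by 0.62 ± 0.10 (adjusted p = 0.00019, edgeR). It was not matched to the annotation used here and is given without coordinates. The actin bundler Fscn2 fell by 0.51 ± 0.10 (adjusted p = 0.00128) and was chosen after its values were seen. Of 21 rod phototransduction genes, only Pdc passed. Pdc encodes phosducin, which binds the beta and gamma subunits of transducin, and rose by 0.39 ± 0.09 (adjusted p = 0.0102, edgeR), from 16810 ± 1040 (SD, n = 5) to 22120 ± 3540 (SD, n = 4) normalized counts. Without ZT13 replicate 4 it was 0.28 and did not pass. Nor did Pdc pass with GC content and length offsets, with only the libraries of the comparison or with the pigment epithelium term. Of 11 cone phototransduction genes 0 passed by edgeR, DESeq2 or limma-voom, with 4 higher and 1 lower at an unadjusted p under 0.05. The short-wavelength opsin Opn1sw had 3600 to 4054 normalized counts at ZT13 and 4177 to 5518 at ZT1 (-0.30 ± 0.10, adjusted p = 0.124). Its ZT13 and ZT1 libraries did not overlap, but it did not pass the test.

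Among 23 genes of the photoreceptor synapse, gap junction and ion channels, 2 rose. Kcne2, a potassium channel subunit, rose by 0.47 ± 0.10 (adjusted p = 0.00352, edgeR), and Ctbp2, whose gene also encodes the synaptic ribbon protein Ribeye, by 0.24 ± 0.07 (adjusted p = 0.0468). Ctbp2 passed in only 1 of the 9 fits with a library left out. Of 16 genes of ON bipolar signalling, 2 rose and 0 fell, with a median log2 fold change of 0.07. The homeobox factor Vsx1 rose by 0.42 ± 0.11 (adjusted p = 0.0278, edgeR) and passed in 5 of the 9 fits with a library left out. The glutamate receptor Grm6 and the channel Trpm1 of ON bipolar cells had log2 fold changes of -0.02 and 0.19 and did not pass (adjusted p = 0.979 and 0.226).

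In the dopamine, cyclic AMP and melatonin list, Drd4 and Adcy1 were the 2 of 23 genes that rose, and 0 fell. Drd4 (chr7:141292006-141296464), the dopamine D4 receptor of photoreceptors, had 3944, 3563, 4289 and 5064 normalized counts at ZT13 and 2291, 1785, 2437, 2818 and 2254 at ZT1. Every dusk library was above every dawn library, and the log2 fold change was 0.86 ± 0.14 (adjusted p = 0.000179, edgeR), or 1.81-fold. Adcy1 (chr11:7063489-7178506), a calcium-stimulated adenylyl cyclase, had 9195, 9444, 8751 and 11200 normalized counts at ZT13 and 7676, 7901, 7512, 7387 and 6525 at ZT1, again with no overlap (0.38 ± 0.07, adjusted p = 0.000364). The list of the 6 clock-controlled retinal genes of the study holds both, and also Nr2e3, while its other members Cys1 (0.40 ± 0.13, adjusted p = 0.11), Plekhb1 (0.17 ± 0.09, adjusted p = 0.496) and Usp2 (0.19 ± 0.13, adjusted p = 0.707) did not pass.

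Of 25 clock genes, 2 rose between dawn and dusk and 0 fell. Ciart, a repressor of the Clock and Bmal1 complex, had 251, 197, 181 and 196 normalized counts at ZT13 and 148, 119, 135, 111 and 167 at ZT1 (0.59 ± 0.16, adjusted p = 0.0352, edgeR). The groups did not overlap, but Ciart passed in only 3 of the 9 fits with a library left out. Rorb had 11360 to 14100 normalized counts at ZT13 and 9480 to 10460 at ZT1. Among the activators, Arntl had 1722 ± 109 (SD, n = 4) normalized counts at ZT13 and 1980 ± 149 (SD, n = 5) at ZT1 (-0.20 ± 0.07, adjusted p = 0.19), Npas2 -0.38 ± 0.18 (adjusted p = 0.402) and Clock -0.05 ± 0.08 (adjusted p = 0.925). Of the alternative fits, Arntl passed only in the one with the replicate number as a block. Among the repressors, Per2 had a log2 fold change of 0.33 ± 0.14 (adjusted p = 0.288), Per3 of 0.16 ± 0.09 (adjusted p = 0.537), Per1 of 0.04 ± 0.16 (adjusted p = 0.984), Cry1 of -0.05 ± 0.08 (adjusted p = 0.922) and Cry2 of 0.01 ± 0.07 (adjusted p = 0.995). None of these 5 passed. Of the nuclear receptors, Nr1d2 had 0.21 ± 0.11 (adjusted p = 0.508), Nr1d1 -0.09 ± 0.15 (adjusted p = 0.931) and Rora 0.18 ± 0.08 (adjusted p = 0.346). The output factors Dbp, 0.26 ± 0.12 (adjusted p = 0.395), and Nfil3, -0.27 ± 0.13 (adjusted p = 0.383), also did not pass. With GC content and length offsets, Nr1d2 (0.23, adjusted p = 0.00263, edgeR), Dbp (0.28, adjusted p = 0.0237) and Cys1 (0.42, adjusted p = 0.0101) passed. The study, which used all 6 time points, called Npas2, Per1, Per2, Rora, Dbp and Nfil3 rhythmic in diabetic retinas. A gene that peaks between ZT1 and ZT13 can have near equal levels at both. A gene that did not pass here is therefore not shown to lack a rhythm. Reads of Nr1d1 could be shared with Thra, and those of Per3 with Camta1.

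Hexokinases, which phosphorylate glucose, changed in both directions. Hkdc1 (chr10:62383137-62422491), a hexokinase of low abundance, had the smallest p of all 19120 genes. It had 93.8, 82.5, 98.2 and 69.7 normalized counts at ZT13 and 191, 194, 223, 224 and 180 at ZT1, and fell by 1.23 ± 0.13 on the log2 scale (adjusted p = 4.9e-09, edgeR), or 2.35-fold. Hk2 (chr6:82725025-82774454), the hexokinase of photoreceptors, changed the other way, with 11670, 11800, 12950 and 17510 normalized counts at ZT13 and 8647, 8408, 8823, 8460 and 9049 at ZT1 (0.63 ± 0.10, adjusted p = 0.000179). ZT13 replicate 5 was the highest, and without it the log2 fold change of Hk2 was 0.48 and still passed. Hk1 had a log2 fold change of -0.05 (unadjusted p = 0.62).

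Of 25 genes of glucose and lactate transport and glycolysis, 4 rose and 0 fell, with a median log2 fold change of 0.11. Beside Hk2 these were the lactate exporter Slc16a3 (0.63 ± 0.14, adjusted p = 0.00977, edgeR), the phosphoglycerate kinase Pgk1 (0.44 ± 0.11, adjusted p = 0.0289) and the enolase Eno1 (0.35 ± 0.10, adjusted p = 0.0489). Of the 9 fits with a library left out, Slc16a3 passed in 8, Pgk1 in 4 and Eno1 in 2. Eno1 also did not pass by limma-voom. Slc16a3 had 762, 888, 942 and 1443 normalized counts at ZT13 and 625, 630, 750, 688 and 559 at ZT1, so that replicate 5 was far the highest. Without ZT13 replicate 5, 1 of the 25 passed, with 7 higher at an unadjusted p under 0.05, and with the pigment epithelium term 0 passed and 4 were higher. With the term Hk2 had 0.52, Slc16a3 0.65, Pgk1 0.31 and Eno1 0.20. The rate-limiting Pfkl had 0.28 (unadjusted p = 0.00273), Ldha 0.20 (unadjusted p = 0.0107), Slc2a1 0.28 (unadjusted p = 0.00942), Gapdh 0.06 (unadjusted p = 0.621) and Pkm 0.0011 (unadjusted p = 0.992).

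Hypoxia factors and their targets gave a similar count, 4 higher and 0 lower of 24 tested, with a median of 0.14. Egln1, the oxygen sensor that marks hypoxia-inducible factors for degradation, rose by 0.42 ± 0.10 (adjusted p = 0.0102, edgeR). Pdk1, which keeps pyruvate out of mitochondria, had 894, 846, 797 and 1103 normalized counts at ZT13 and 735, 742, 741, 665 and 613 at ZT1 (0.38 ± 0.10, adjusted p = 0.0263). Mxi1, an antagonist of Myc, rose by 0.38 ± 0.10 (adjusted p = 0.0369), and the carbonic anhydrase Car12 by 1.51 ± 0.30 (adjusted p = 0.00222). Car12 followed the pigment epithelium marker sum and had 0.14 with it as a term (adjusted p = 1.0, edgeR). Hif1a itself had 0.06 (unadjusted p = 0.424), Epas1 0.07 (unadjusted p = 0.418) and Vegfa -0.07 (unadjusted p = 0.468). Only 1 of the 24 passed without ZT13 replicate 5, and 1 without ZT1 replicate 5, and in both fits it was Car12. Of the 9 fits with a library left out, Car12 passed in 9, Egln1 in 7, Pdk1 in 5 and Mxi1 in 4. With the pigment epithelium term 0 passed, and 6 were higher at an unadjusted p under 0.05.

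Of the glucocorticoid receptor and its targets, 4 of 19 rose and 1 fell. Hif3a (chr7:17031507-17062427), an inhibitory relative of Hif1a, had 226, 240, 251 and 273 normalized counts at ZT13 and 110, 133, 121, 109 and 120 at ZT1. It rose by 1.06 ± 0.20 (adjusted p = 0.000739, edgeR), with a narrow range in both groups. Klf9, a zinc finger factor, had 2005 to 2237 at ZT13 and 1541 to 1704 at ZT1 (0.39 ± 0.09, adjusted p = 0.00706). The metallothioneins Mt1 and Mt2, which bind zinc, rose by 1.30 ± 0.31 and 1.23 ± 0.33 (adjusted p = 0.0158 and 0.038). Mt1 had 314, 288, 605 and 1093 normalized counts at ZT13 and 189, 133, 198, 285 and 341 at ZT1, so the groups overlapped and 2 ZT13 libraries carried the difference. Without ZT13 replicate 5 Mt1 was 0.80 and Mt2 0.81, and neither passed. Mt2 passed in 3 of the 9 fits with a library left out, and with the pigment epithelium term it had 0.43 and Mt1 0.81. Mt1 and Mt2 were also the 2 that rose among 21 NRF2 antioxidant genes, and limma-voom called 0 there, with 5 higher at an unadjusted p under 0.05. The kinase Sgk1 fell by 0.29 ± 0.07 (adjusted p = 0.0277) and passed in 2 of the 9 fits with a library left out. The receptor Nr3c1 had -0.06 (unadjusted p = 0.443), and Fkbp5, a common marker of its activity, 0.38 (unadjusted p = 0.00084), which did not pass after adjustment.

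Few chaperone genes passed the test. Of 23 genes of the temperature and heat shock list, the cytosolic chaperones Hspa1a (-0.44 ± 0.12, adjusted p = 0.0425, edgeR) and Hsph1 (-0.39 ± 0.11, adjusted p = 0.0466) fell, and each passed in 2 of the 9 fits with a library left out. The median of the 23 was -0.13, with 7 positive. Limma-voom called 0 of them, with 4 lower and 1 higher at an unadjusted p under 0.05. Of 29 genes of the endoplasmic reticulum chaperones and the unfolded protein response, 0 passed by edgeR, DESeq2 or limma-voom, and 8 were lower at an unadjusted p under 0.05 by edgeR. The median was -0.13, with 4 of 29 positive, and Hspa5, the main chaperone, had -0.37 ± 0.12 (adjusted p = 0.105). With the replicate number as a block, Ddit3 of this list passed.

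Of 16 genes of the visual cycle, which recycles the chromophore, 7 rose and 0 fell. All 4 genes placed with the pigment epithelium rose, and the other 3 that rose (Rgr, Rdh5 and Rdh10) were among 5 placed with Müller glia. The 7 placed with photoreceptors had a median log2 fold change of -0.01, and none of them was among the genes that rose. Rpe65 (chr3:159599175-159625321), the isomerase that remakes the chromophore in its light-sensitive form, had 393, 292, 372 and 402 normalized counts at ZT13 and 90.7, 165, 107, 97.5 and 60.0 at ZT1. Its groups were far apart (1.84 ± 0.39, adjusted p = 0.00485, edgeR), or 3.57-fold. Lrat, the enzyme that makes retinyl esters, rose by 1.76 ± 0.33 (adjusted p = 0.00103), the retinol carrier Ttr by 1.86 ± 0.33 (adjusted p = 0.000511) and the retinol-binding protein receptor Stra6 by 1.07 ± 0.21 (adjusted p = 0.00238). Rgr, a retinal-isomerizing opsin found in both pigment epithelium and Müller glia, had 1060, 958, 1360 and 1909 normalized counts at ZT13 and 374, 562, 350, 389 and 268 at ZT1 (1.77 ± 0.31, adjusted p = 0.000398). Rpe65, Lrat, Ttr and Rgr are themselves among the markers summed. With the marker sum as a term, 0 of the other 12 passed by edgeR and 0 had an unadjusted p under 0.05.

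**Figure D2:**
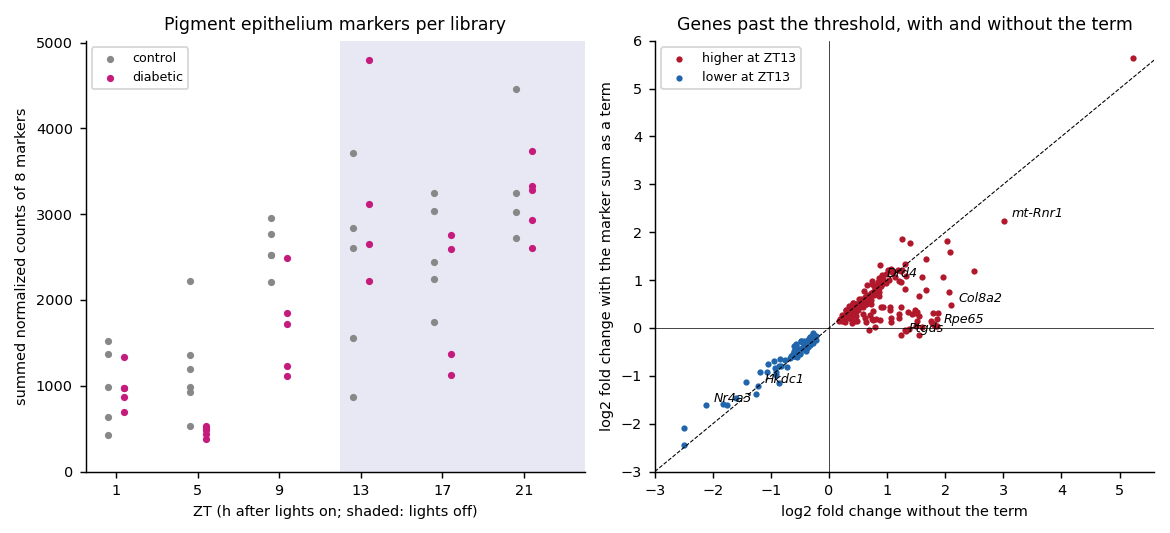
Left, summed normalized counts of the 8 pigment epithelium markers in each of the 58 libraries by hour and genotype. Right, log2 fold change of ZT13 over ZT1 in diabetic retinas for the 268 genes, without (horizontal) and with (vertical) the marker sum as a term. The 9 libraries compared lie at ZT1 (689 to 1335) and ZT13 (2218 to 4801). The points far under the dashed line of equal values, such as Col8a2, Rpe65 and Ptgds, lose most of their change with the term. Rpe65 is itself among the 8 markers summed, so its loss follows from the term, while Col8a2 and Ptgds are not among them.

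Some of the genes with the smallest p lost much of their change with the marker sum as a term, and others did not. Col8a2 (chr4:126286793-126314330), a collagen of basement membranes, had 236, 192, 231 and 404 normalized counts at ZT13 and 68.3, 77.6, 58.7, 71.8 and 34.1 at ZT1 (2.10 ± 0.32, adjusted p = 8.9e-05, edgeR). With the term its log2 fold change was 0.47 (adjusted p = 0.497). The secreted guidance factor Sema3c, with 122, 134, 135 and 183 against 39.5, 58.2, 43.7, 56.4 and 47.97 normalized counts, went from 1.54 to 0.66, and the lysophospholipase Enpp2, with 1205, 1148, 1365 and 1096 against 750, 846, 743, 696 and 537, from 0.75 to 0.36, and neither passed with the term. With the 5 markers summed left out, in 35 of the 166 genes that rose the level followed the marker sum over the 58 libraries (adjusted p under 0.05, positive slope), and in 0 of the 97 that fell did it do so in either direction by edgeR. The values with the term were close to those without it for Samd7 (0.57), Drd4 (0.98), Hif3a (1.24), Kif4 (1.19), Hkdc1 (-1.22), Nr2e3 (-0.58) and BC027072 (-0.56), which all passed with it too. Car14, a membrane carbonic anhydrase, had 1005, 794, 932 and 902 normalized counts at ZT13 and 659, 579, 564, 572 and 503 at ZT1. It rose by 0.66 ± 0.10 (adjusted p = 8.9e-05) and by 0.59 with the term. None of the genes named here was among the markers summed.

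Other genes with a small p were of diverse function. Kif4 (chrX:100625737-100727214), a kinesin that binds chromosomes, had 151, 170, 116 and 155 normalized counts at ZT13 and 49.1, 51.2, 77.1, 64.5 and 69.2 at ZT1 (1.23 ± 0.20, adjusted p = 0.000189, edgeR). Thbs4 (1.96 ± 0.34, adjusted p = 0.000364) and Cpxm2 (1.87 ± 0.34, adjusted p = 0.00064), both secreted proteins, were among the largest changes, at low levels of 41.8 and 87.1 normalized counts at ZT13. With the pigment epithelium term they had 1.07 and 0.32, and neither passed (adjusted p = 0.48 and 0.952, edgeR). Stc1, a secreted hormone that acts on calcium and phosphate transport, had 96.2, 108, 99.8 and 84.1 normalized counts at ZT13 and 226, 161, 188, 237 and 204 at ZT1. It fell by 1.07 ± 0.18 (adjusted p = 0.000223). The matrix protein Spon2 had 12.7 to 16.01 at ZT13 and 34.5 to 55.5 at ZT1 (-1.61 ± 0.28, adjusted p = 0.000379). Tnfaip3, which restrains NF-kappaB signalling, fell by 0.39 ± 0.07 (adjusted p = 0.000428), and the phosphate transporter Slc20a1 by 0.35 ± 0.06 (adjusted p = 0.000582). The unnamed transcript Gm9195 rose by 0.54 ± 0.09 (adjusted p = 0.000179). Of the genes named, Cpxm2, Ctbp2, Pdc, Klf9, Rdh5, Stra6, Clock, Npas2, Nr2e3, Per3, Camta1, Mir212, 1700016P03Rik, Gm45266, Fkbp5, Epas1, Hif1a, Pkm, Slc2a1 and Trpm1 overlap another gene on the same strand and may share its reads. Enpp2, Car14, Hk2, Kif4, Stc1, Ciart, Gm23935, Slc20a1, Hspa1a, Hif3a, Thrb, Lrat, Mxi1, Mt2, Wnt5b, Bdnf, Opn1sw, Arntl, Cry2, Rora, Dbp, Usp2, Nr1d1, Thra, Atf3, Junb, Hk1, Grm6 and Gapdh overlap one on the other strand, and the counting is not stated to use strand.

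**Figure D3:**
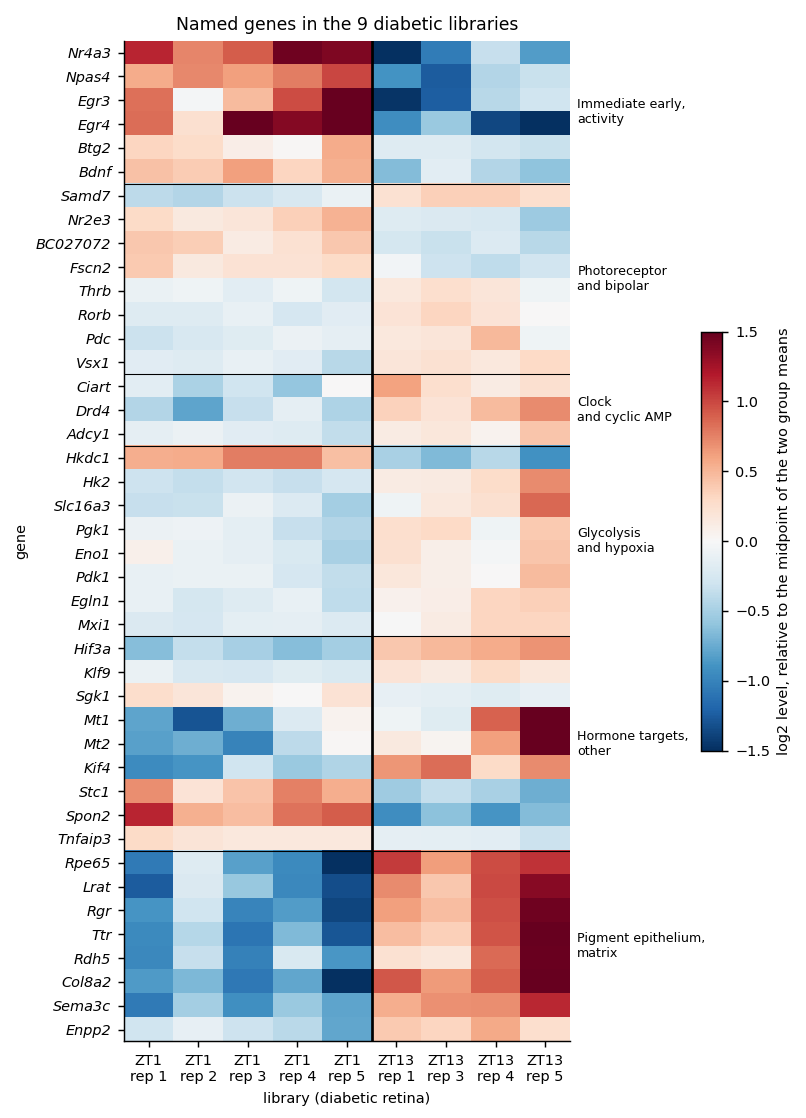
Log2 level of named genes in the 9 diabetic libraries, relative to the midpoint between the ZT1 and ZT13 means, with colours ending at 1.5 in either direction. Within most rows the 5 ZT1 libraries and the 4 ZT13 libraries have opposite colours. ZT13 replicate 5 has the strongest colour for Hk2, Slc16a3 and Mt1.

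The growth factor receptor Met (0.75 ± 0.16, adjusted p = 0.0046, edgeR) rose with Col8a2 among 27 angiogenesis genes. It followed the marker sum, and with the term it had 0.17. Among 21 genes of gliosis and complement 1 rose and 0 fell, with a median of 0.02. Brca1, which repairs DNA breaks, fell (-0.44 ± 0.11, adjusted p = 0.0294) as the single call among 40 genes of DNA replication and repair, and passed in 4 of the 9 fits with a library left out.

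Beside the cone and endoplasmic reticulum lists, 13 further lists had no gene past the threshold by edgeR. The 28 genes of insulin, FOXO and glucose sensing had 3 higher and 1 lower at an unadjusted p under 0.05, with Igf1r at 0.15 ± 0.06 (adjusted p = 0.246) and Foxo4 at -0.17 ± 0.07 (adjusted p = 0.329), and 0 passed by DESeq2 or limma-voom. The 77 cytosolic ribosomal proteins had a median of 0.09, with 63 of 77 positive and 8 higher and 2 lower at an unadjusted p under 0.05. Their median was 0.02 without ZT13 replicate 5 and -0.02 with the pigment epithelium term. The respiratory chain had medians of 0.10 for 37 complex I subunits and 0.12 for 38 subunits of complexes III to V, and of 0.06 and 0.06 without replicate 5. DESeq2 and limma-voom called 0 genes in these 3 lists. In ZT13 replicate 5 Rpl34 had 885 normalized counts, against 435 to 490 in the other ZT13 libraries. The remaining 9 lists, among them neuropeptides, fatty acid oxidation, cholesterol synthesis, splicing factors, proteasome and autophagy, had medians between -0.11 and 0.03. They also comprised amino acid transport, mitochondrially encoded genes and nuclear long non-coding RNAs, and none of the 9 had more than 3 genes past an unadjusted p of 0.05 in either direction. DESeq2 called 1 gene lower among 36 of cholesterol and fatty acid synthesis, and limma-voom called 0 in the 9 lists.

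Over the 6 time points of the diabetic retinas, the genes reached their dusk level at different hours. Nr4a3 had a mean of 155 normalized counts at ZT1, which was 71.7 and 66.7 by ZT5 and ZT9 and 35.01 at dusk, and at ZT17 and ZT21 it had 36.6 and 24.7, so most of the fall was before ZT5 and the level stayed low in the dark. Hkdc1 was highest at ZT1 (202), fell to 111 at ZT9 and 86.0 at ZT13, and was 155 again at ZT21. Drd4 was between 1936 and 2317 at ZT1, ZT5 and ZT9 and between 4084 and 4294 at ZT13, ZT17 and ZT21, which put its change between ZT9 and ZT13. Hk2 had 8677 at ZT1, 6507 at ZT5, 8786 at ZT9 and 13480 at ZT13, so part of its rise from the level at ZT5 came before ZT9. In control retinas Drd4 had 2334 at ZT9, 3237 at ZT13 and 5023 at ZT17, and Hk2 8143, 11880 and 15640. In diabetic retinas the means at ZT17 were 4294 for Drd4 and 13900 for Hk2. Samd7 was highest at ZT13 (2553), with 2096 at ZT9 and 1811 at ZT17. Kif4 had 62.2 at ZT1, 103 at ZT5, 161 at ZT9 and 148 at ZT13, and Adcy1 9146 at ZT5, 9630 at ZT9 and 9648 at ZT13, and neighbouring levels at ZT9 and ZT13 were within the spread of the libraries for both. These courses are descriptions, with no test between neighbouring hours.

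**Figure D4:**
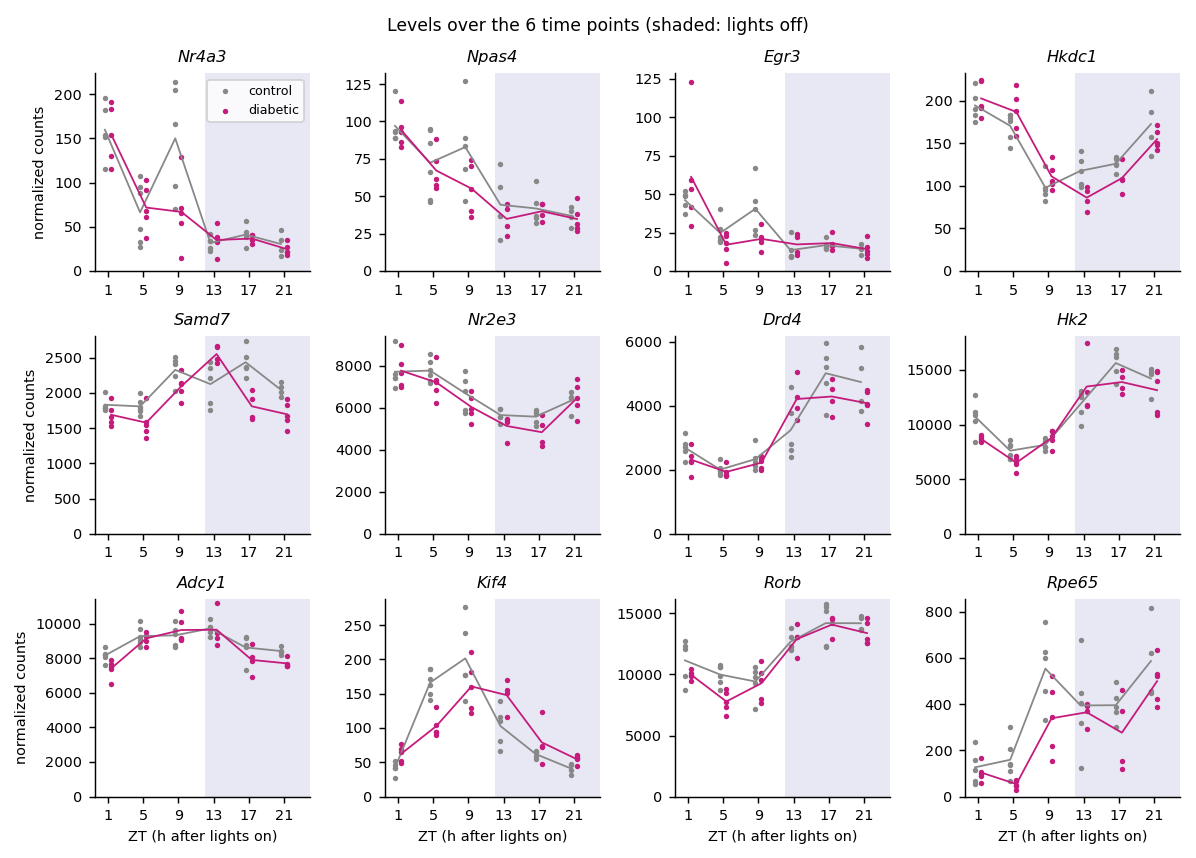
Normalized counts of 12 genes at the 6 time points, with 1 point per library and lines through the group means, for diabetic and control retinas, and the dark phase shaded. In diabetic retinas the means of Drd4, Hk2 and Rorb are higher at ZT13 than at ZT9, Nr4a3 and Egr3 are highest at ZT1, and Samd7 peaks at ZT13.

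The same comparison in control retinas gave 91 genes higher (0.476% of all genes) and 71 lower (0.371%) at ZT13. Of these, 44 were also higher in diabetic retinas, 25.7% of the diabetic and 48.4% of the control list, and 28 were also lower, 28.9% and 39.4%. Of the 171 genes higher in diabetic retinas, 168 had a positive fold change in controls, with a median of 0.42, and of the 97 lower ones 96 had a negative one, with a median of -0.24. Conversely, the 91 genes higher in controls had a median of 0.68 there and 0.65 in diabetic retinas, and the 71 lower ones -0.51 and -0.39. Each list was chosen for its own comparison, which by itself makes the values larger there. The diabetic comparison rests on 9 libraries and the control comparison on 10.

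The difference between the 2 comparisons was tested as an interaction, and 0 genes passed by edgeR, DESeq2 or limma-voom, with a smallest adjusted p of 0.999. At an unadjusted p under 0.05 there were 558 genes, 2.92% of those tested. No change between dawn and dusk was therefore shown to be particular to diabetic retinas. The smallest unadjusted p was that of Ctgf, a matrix-associated growth factor, with 0.24 ± 0.18 in diabetic and -0.75 in control retinas (unadjusted p = 0.000148, edgeR). It was followed by AU020206, Map3k5, Wnt5b and Gm45266. Wnt5b, a secreted Wnt ligand, rose by 0.65 ± 0.16 in diabetic retinas (adjusted p = 0.0255), passed in 5 of the 9 fits with a library left out, and had -0.13 ± 0.15 in controls (unadjusted p of the difference 0.00099, adjusted p 0.999). Among genes named above, the fold change was 0.63 ± 0.10 in diabetic and 0.15 ± 0.10 in control retinas for Hk2 (unadjusted p = 0.00115 for the difference), 0.59 and 0.22 for Samd7 (unadjusted p = 0.00293), 0.86 and 0.27 for Drd4 (unadjusted p = 0.00322) and -1.23 and -0.74 for Hkdc1 (unadjusted p = 0.00605). The means of Drd4 at ZT13 were 4215 ± 639 (SD, n = 4) in diabetic and 3237 in control retinas, and those at ZT1 2317 ± 372 (SD, n = 5) and 2695. For Nr4a3 the values were -2.12 and -2.32 (unadjusted p = 0.692), for Stc1 -1.07 and -1.20 (unadjusted p = 0.614), for Hif3a 1.06 and 1.27 (unadjusted p = 0.46) and for Kif4 1.23 and 1.33 (unadjusted p = 0.716).

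**Figure D5:**
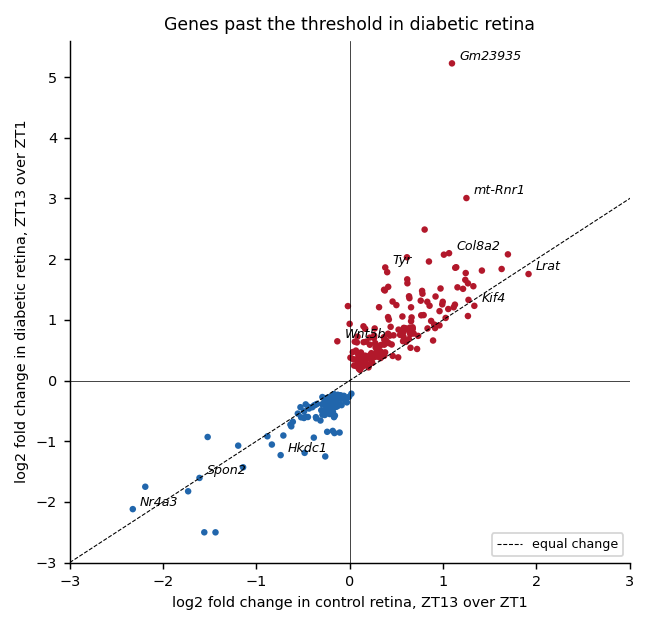
Log2 fold change of ZT13 over ZT1 for the 268 genes past the threshold in diabetic retinas, in control (horizontal) and diabetic (vertical) retinas, with a dashed line of equal change. As the genes were chosen in diabetic retinas, 160 of 171 and 87 of 97 have the larger change there. Nearly all points share their sign, and the test of the difference called 0 genes.

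Promoters, taken as 250 bases before to 50 after a gene's start (RefSeq, GRCm38.p6), were searched on both strands for an E-box (CACGTG), bound by Clock and Bmal1, a D-box (TTATGTAA), bound by Dbp and Nfil3, a cyclic AMP response element (TGACGTCA) and a site of the photoreceptor factor Crx (TAATCC). A promoter was found for 105 of 133 named genes. An E-box was in 7.15% of all promoters in the table, in 9.32% of those of the genes tested, in 7.38% of those of genes higher and in 12.5% of those of genes lower at ZT13. In the same order the D-box was in 0.938%, 0.608%, 2.01% and 0%, the cyclic AMP response element in 1.79%, 2.91%, 0.671% and 4.55%, and the Crx site in 7.06%, 5.95%, 6.04% and 5.68%. The last 2 sets hold 149 and 88 promoters, and these shares were not tested, and a match describes letters and not binding. The promoters of Hkdc1, Nr2e3, Drd4, Hk2, Nr4a3 and Npas4 held none of the 4 motifs in this window. Shown are 5 promoters of named genes that do, with the matches in capitals. Ciart, the called clock repressor, holds 3 E-boxes, Adcy1 1 E-box, Samd7 1 Crx site, the immediate early gene Btg2 1 cyclic AMP response element, and Rpe65 1 D-box and 1 Crx site.
Ciart, chr3:95882179-95882478, minus strand: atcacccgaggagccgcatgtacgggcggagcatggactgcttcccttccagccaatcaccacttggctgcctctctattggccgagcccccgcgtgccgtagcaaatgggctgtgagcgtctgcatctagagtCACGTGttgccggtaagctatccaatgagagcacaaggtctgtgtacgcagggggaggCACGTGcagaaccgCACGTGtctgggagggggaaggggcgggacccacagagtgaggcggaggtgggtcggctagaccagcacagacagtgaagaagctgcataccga
Adcy1, chr11:7063183-7063482, plus strand: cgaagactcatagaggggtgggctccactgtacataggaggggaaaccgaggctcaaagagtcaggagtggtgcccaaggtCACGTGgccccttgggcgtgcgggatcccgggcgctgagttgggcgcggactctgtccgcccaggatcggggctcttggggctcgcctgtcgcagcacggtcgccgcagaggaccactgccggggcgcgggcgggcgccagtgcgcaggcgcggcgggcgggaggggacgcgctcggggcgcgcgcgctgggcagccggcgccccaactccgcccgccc
Samd7, chr3:30746043-30746342, plus strand: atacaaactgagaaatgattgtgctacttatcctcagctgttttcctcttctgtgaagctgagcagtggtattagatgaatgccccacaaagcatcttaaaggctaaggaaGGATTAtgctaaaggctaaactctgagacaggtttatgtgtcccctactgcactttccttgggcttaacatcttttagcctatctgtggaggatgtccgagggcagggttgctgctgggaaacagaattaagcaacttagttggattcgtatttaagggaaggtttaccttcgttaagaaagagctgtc
Btg2, chr1:134079106-134079405, minus strand: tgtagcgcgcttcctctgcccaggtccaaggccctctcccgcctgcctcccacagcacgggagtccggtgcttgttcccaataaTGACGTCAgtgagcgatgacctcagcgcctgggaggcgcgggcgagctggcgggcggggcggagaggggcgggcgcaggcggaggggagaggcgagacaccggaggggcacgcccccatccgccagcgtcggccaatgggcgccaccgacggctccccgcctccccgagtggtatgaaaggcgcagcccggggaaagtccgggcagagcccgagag
Rpe65, chr3:159598931-159599230, plus strand: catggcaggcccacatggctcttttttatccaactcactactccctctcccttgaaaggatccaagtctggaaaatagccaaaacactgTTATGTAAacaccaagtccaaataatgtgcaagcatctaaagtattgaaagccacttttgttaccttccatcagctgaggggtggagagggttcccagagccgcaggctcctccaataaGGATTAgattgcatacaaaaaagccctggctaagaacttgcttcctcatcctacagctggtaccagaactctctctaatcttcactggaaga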

How the data were processed

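Retinal RNA was measured by total RNA sequencing after ribosomal RNA depletion, in 58 libraries of 12 groups. Per the methods of the study and the submitters' processing notes, the authors aligned reads with STAR 2.7.4a to GRCm38 with Gencode M15 genes and deposited raw counts per gene from HTSeq 0.11.1. The strand setting of counting is not given in the sources used here, so overlapping genes may share reads. The study itself used DESeq2 1.26.0 for normalization and differential expression. It called rhythmic genes over all time points with empJTK and compared rhythms between genotypes with DODR.

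From these counts, genes with a median above 4 normalized counts (DESeq2 size factors) over all libraries were kept, 19120 of 52459. A model of the 12 groups was fitted to all 58 libraries with edgeR 4.0.16 (TMM, quasi-likelihood test, R 4.3.3). ZT13 minus ZT1 was tested in diabetic and control retinas, as was the difference of both, with Benjamini-Hochberg adjustment over all genes at 0.05. Standard deviations are over libraries. Library measures used exact permutation tests. Alternatives were DESeq2 1.42.0, limma-voom (limma 3.58.1), other filters, scalings and sample sets, thinned counts, a replicate block and leaving out each library. A term for pigment epithelium markers was chosen after seeing the data. Scripts were tested on simulated data.

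Groups came from the sample labels, and replicates are separate biological samples per the study's methods. Depth was 10223817 to 19441932 counts in the 9 libraries, and precision is limited by 4 and 5 libraries a group. Named genes were the 12 with the smallest p and the 6 with the largest change (mean of at least 20) in each direction, up to 4 called genes of each list (for a list with none, the 2 with the smallest p), 15 clock and 6 clock-controlled genes, and the 5 with the smallest p for the difference. Other genes named within lists, and Mir212, Bdnf, Fscn2 and Ptgds, were added after their values were seen. The genes and lists were chosen with earlier results of these data known. Gene coordinates are those of Gencode M21 (GRCm38), matched by symbol. Results for some genes are not reported here.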

Additional observations from a re-analysis of the deposited data

Results flagged for a closer look

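In groups of 4 or 5 libraries, a value was singled out where its gap to the nearest library was large against the range of the group (Dixon's test at 95%). Of 284 groups of values tested, 21 were singled out, and chance alone gives about 1 in 20. ZT13 replicate 5 gave 11 of the 21. It was highest for Gm23935 (886800 normalized counts, 5.59% of its counts), for the share of its 10 most counted genes (21.5%), for the ribosomal proteins Rpl34 (885) and Rpl37 (965), for Cox6b1 (1293), Psmd4 (1225), Dnmt3a (5204) and CT010467.1 (1793), and lowest for Nr2e3 (4310) and Tnfaip3 (4450). ZT13 replicate 4 was highest for mt-Nd6 (4189).

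Among the ZT1 libraries, replicate 1 was highest for Tnfaip3 (6795), Rpl37 (513) and Cry2 (2472). Replicate 2 was lowest for Thbs4 (4.16) and Wipi1 (663) and highest for Slc24a5 (22.2). Replicate 4 was lowest for Rbm3 (693) and highest in the share of mitochondrial mRNA (1.87%), and replicate 5 was lowest for Vsx1 (270.3). Between diabetic and control retinas only the difference of the ZT13 minus ZT1 change was tested, and 0 genes passed by edgeR. Levels at a given hour were not tested between the genotypes.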

How the results depend on the processing

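The counts of 171 genes higher and 97 lower at ZT13 in diabetic retinas stayed within 1.5 times under DESeq2 (223 and 130), limma-voom (148 and 82), DESeq2 size factors, the filter of edgeR and a minimum fold. Without a filter 45 genes were lower, with only the libraries of the comparison 52, and with only the 28 diabetic libraries 58. Thinning to the smallest library gave 111 higher and 48 lower, GC content and length offsets gave 286 and 191, and the pigment epithelium term gave 18 and 6. With that term Ptgds, an enzyme of prostaglandin synthesis, had -0.16 (adjusted p = 1.0, edgeR) in place of 1.24. The cause of these shifts was not tested. Leaving out 1 library gave 80 to 149 higher and 38 to 84 lower, with the lowest without ZT13 replicate 5 and ZT1 replicate 5. The number of genes lower was 60 without ZT1 replicate 3, 52 without ZT13 replicate 3 and 56 without ZT13 replicate 5. The difference between genotypes had 0 calls in each fit that held both genotypes and tested it, with 388 to 1172 genes at an unadjusted p under 0.05.

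With the replicate number as a block, 215 genes were higher and 154 lower, of which 168 and 96 were among the 171 and 97. With it the Arntl log2 fold change of -0.21 passed (adjusted p = 0.0396, edgeR), as did the Ddit3 log2 fold change of -0.38 (adjusted p = 0.0228). No label says what a shared number stands for, and libraries with the same number deviated together to unequal degrees, only weakly for replicate 5. Deviations from the group means of libraries with the same number correlated at 0.432, 0.124, 0.386 and 0.0599 over 12891 genes, and ZT13 replicates 3 and 5 correlated best with another number.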

Other observations

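The interferon factor Irf7, picked after its values were seen, was higher at dusk (0.85, adjusted p = 0.00855, edgeR) and had 0.17 in control retinas. The difference between the genotypes had an unadjusted p = 0.0122 and an adjusted p = 0.999 (edgeR). Irf7 did not pass without ZT13 replicate 5 (adjusted p = 0.0534) or with the pigment epithelium term (1.04, adjusted p = 0.0538). It overlaps a gene on the other strand.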
